A study of Homo sapiens with 4 samples.

Results

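The mitochondrial ribosomal protein genes carry symbols that start with MRPL, for the large subunit, or MRPS, for the small subunit, followed by a digit. They were described here by H3K4me3, the histone mark of active promoters, measured with CUT-and-Tag in HCC1428 cells. A gene was included when at least 1 consensus peak annotated to it had its centre within 1000 bases of the annotated transcription start site (TSS), and its peaks within that distance were summed. The rule found 76 genes, 2 of them the pseudogenes MRPL45P2 and MRPS31P5, among 16403 genes with such a peak, and 104 peaks of 110018. HCC1428 is an established luminal breast cancer line whose genotype is labelled WT. The cells received either DMSO, the vehicle, or C48 at 2.5 µM, and were collected on day 5. C48 inhibits the KDM5 enzymes, which remove methyl groups from H3K4. Each group held 2 libraries labelled as biological replicates, all from 1 cell line, and Drosophila nuclei had been added to every sample.

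Mitochondria make a handful of membrane proteins of the respiratory chain on ribosomes of their own. The RNA of these ribosomes is encoded in the mitochondrial genome, but every protein of them is encoded in the nucleus, made in the cytoplasm and imported. Some of these proteins have homologues in bacterial ribosomes and others were added during the evolution of mitochondria. Their genes are expressed in nearly all cells and mostly start in CpG-rich promoters, which carry H3K4me3 on the nucleosomes beside the start.

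The 4 libraries held 58.4 to 88.4 M aligned tags, and 64.0% to 66.3% of the tags lay in peaks. Libraries of 1 group correlated across peaks at 0.993 in both groups and libraries of different groups at 0.950 to 0.953. Of 8 luminal markers, 7 had a mean of at least 20 tags per 10 M, up to 995 at KRT8, and no peak within 1 kb was annotated to GATA3. Of 5 basal, 4 immune and 4 stromal markers, 1 in each list reached 20, and the defining genes KRT5, KRT14, PTPRC, COL1A1 and PECAM1 had no such peak. The summed level of the luminal list was 4410 to 4443 in DMSO and 2472 to 2588 in C48. In it TFF1 was higher in C48, at 44.3 and 37.8 in DMSO and 79.6 and 76.8 in C48, and the others with a peak were lower. The basal sum, 104 to 109.6 in DMSO and 163 to 175 in C48, was nearly all VIM. The immune sum, 17.8 to 19.7 in DMSO and 41.6 to 44.4 in C48, was CD14 alone. The stromal sum, 40.7 to 41.7 in DMSO and 80.5 to 91.4 in C48, was COL1A2 alone. The part of these in the results was not tested.

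Promoter sequences from RefSeq, on GRCh38.p14 (hg38), were matched by symbol for 66 of the 76 genes, each covering 250 bases before the start and 50 after it. The stretches that show how closely these starts can sit beside other genes come first. The MRPL44 window has no annotated exon in its 250 upstream bases. The MRPL50 window is the whole gap to the opposite-strand start of ZNF189. The MRPL46 window lies in the gap to MRPS11, another gene of the set. Capitals mark a CCAAT box, read here on the reverse strand as ATTGG.
MRPL44, chr2:223957213-223957462, plus strand: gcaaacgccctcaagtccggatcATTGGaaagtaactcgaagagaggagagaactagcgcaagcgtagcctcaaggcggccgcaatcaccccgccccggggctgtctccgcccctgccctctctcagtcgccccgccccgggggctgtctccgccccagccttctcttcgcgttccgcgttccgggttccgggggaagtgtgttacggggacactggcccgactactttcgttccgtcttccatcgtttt
MRPL50, chr9:101398619-101398850, minus strand: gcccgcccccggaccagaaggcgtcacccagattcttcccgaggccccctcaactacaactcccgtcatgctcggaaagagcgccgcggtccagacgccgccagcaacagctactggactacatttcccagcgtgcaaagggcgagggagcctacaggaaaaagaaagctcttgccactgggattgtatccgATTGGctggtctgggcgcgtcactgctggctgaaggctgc
MRPL46, chr15:88467391-88467452, minus strand: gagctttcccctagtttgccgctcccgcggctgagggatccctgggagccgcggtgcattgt

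Of the promoters matched, 28 of 66 (42.4%) held the ETS core CCGGAAG on either strand. Among the promoters of all tested genes 17.96% held it, and among all 27305 promoters 10.9%. ETS factors include GABPA, a regulator of many nuclear genes for mitochondrial proteins. Most matches lay close to the start, with a median position, counted from the start, of -31.5 for upstream matches on the gene's strand and of -29 for those on the other. The last 100 bases of the window held a match in 36.4% of the members and in 10.6% of all tested genes. The following sites come from members named further on, with the core in capitals and up to 10 bases on each side.
MRPL3, chr3:131502987-131503013, minus strand: gtaaaacgcaCCGGAAGtgggtccggc
MRPL27, chr17:50373176-50373202, minus strand: cttttcgagaCCGGAAGtgagtgatcg
MRPL54, chr19:3762651-3762677, plus strand: ccactgacgtCTTCCGGaaacgtgcac
MRPL58, chr17:75012652-75012678, plus strand: gaagcgcccgCCGGAAGcagtcgcaag
MRPS22, chr3:139343989-139344015, plus strand: ctcccaaccaCTTCCGGcgcaagtggc
MRPS23, chr17:57850042-57850068, minus strand: ggagcagccgCTTCCGGttccggtagc

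The YY1 core ATGGCGGC, which holds no other searched motif, was found in 19 of 66 promoters (28.8%), against 5.93% of those of all tested genes and 3.33% of all promoters. YY1 is a zinc finger factor that binds many housekeeping promoters. Of the matches, 17 lay downstream of the start on the gene's own strand, and in 16 of these the first base was that of an annotated start codon, so the letters also encode the first amino acids of the protein. The sites of MRPL1, MRPL9, MRPL46 and MRPL50 are examples.
MRPL1, chr4:77862839-77862866, plus strand: agtgcccaacATGGCGGCggccgtaagg
MRPL9, chr1:151763462-151763489, minus strand: gcctgtgaacATGGCGGCgcccgttgtc
MRPL46, chr15:88467360-88467387, minus strand: agaacgaaagATGGCGGCgcccgtaagg
MRPL50, chr9:101398575-101398602, minus strand: ctcatcgaagATGGCGGCgcgatctgtg

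An ETS or a YY1 core was present in 42 of the 66 promoters (63.6%), compared with 22.5% of those of all tested genes. The NRF1 core GCGCATGC, which matches a factor named for its role at respiratory genes, was found in 5 (7.58%), against 5.44% of all tested genes and 3.35% of all promoters. The CCAAT box, CCAAT, was found in 17 (25.8%), against 36.0% and 35.7%. The median GC content was 60.7% in the members and 66.7% in all tested genes, and the median number of CpG was 24 and 27. Members with an ETS core had a median log2 fold change of -0.49 and those without -0.51, and those with a YY1 core -0.43 and those without -0.51. Over all tested genes these medians were -0.44 and -0.36 for the ETS core and -0.51 and -0.37 for the YY1 core, an order opposite to that in the members at both cores. These shares describe the letters in the windows and say nothing of binding.

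In C48 most of these promoters carried less H3K4me3 relative to the bulk of the peaks. Of 75 genes tested, 55 fell, 7 rose and 13 were not called (limma, adjusted p under 0.05), and the median log2 fold change, C48 over DMSO, was -0.48. Over all 14649 genes tested, 64.5% were called lower and 18.8% higher, with a median of -0.37, which puts the members at -0.115 relative to all genes. The libraries of the 2 groups did not overlap at 68 of the 75 genes, 59 lower and 9 higher in C48, compared with 91.1% of all genes. Values are tags per 10 M aligned tags after trimmed mean of M values (TMM) scaling, which sets the bulk of peaks equal between libraries, so a shift shared by all peaks is not seen. The study reports that C48 raised H3K4me3 globally, from immunoblots and from fewer Drosophila reads in C48 samples. After spike-in scaling it reports more H3K4me3 at promoters. A fall given here is therefore relative to the other peaks and does not show an absolute loss of the mark. In these bulk libraries fewer cells with the mark and less mark per cell cannot be told apart.

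Per 10 M tags as deposited, without TMM, the median of all genes was -0.031 and that of the members -0.14. On that scale 37 members were called lower and 23 higher, against 41.2% and 35.8% of all 14664 genes tested. The distance between the median of the members and that of all genes was -0.114 or -0.115 under every scaling tried. The scalings were TMM, per 10 M tags, the column total and DESeq2 size factors. Each multiplies all values of a library by the same factor, which shifts all genes by nearly the same amount on the log scale. The distance is therefore almost fixed by construction, and its constancy is no check of the result. Directions given in the following are those with TMM, and where the call of a member described by its own fold change differed per 10 M tags, that value is given with it. Called members rested on at least 93 tags in every library.

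The level differed widely between the members. The mean over the 4 libraries ran from 8.37 to 1469 tags per 10 M, with a median of 284 and quartiles of 178 and 545, beside a median of 273 for all genes. The 25 genes with the highest level, with means of 475 to 1469, were all called lower with TMM, with a median log2 fold change of -0.57. Per 10 M tags MRPL11, MRPL13, MRPL36 and MRPL58 among them were called higher (0.13, 0.11, 0.16 and 0.19). MRPL12, MRPL43, MRPS9 and MRPS23 were not called on that scale, and the others were lower. The share over all genes at this level was not computed. Of the 25 with a middle level 17 were lower and 4 higher (median -0.48), and of the 25 with the lowest level 13 were lower and 3 higher (median -0.33). Across the 75 genes the log2 level and the log2 fold change correlated at -0.43 (Pearson) and -0.34 (Spearman), a description over genes that share libraries. Of all genes with a mean between the quartiles of the members, 78.6% were lower and 10.3% higher, with a median of -0.44, and of the 37 members in that range 70.3% were lower and 10.8% higher, with a median of -0.48.

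**Figure D1:**
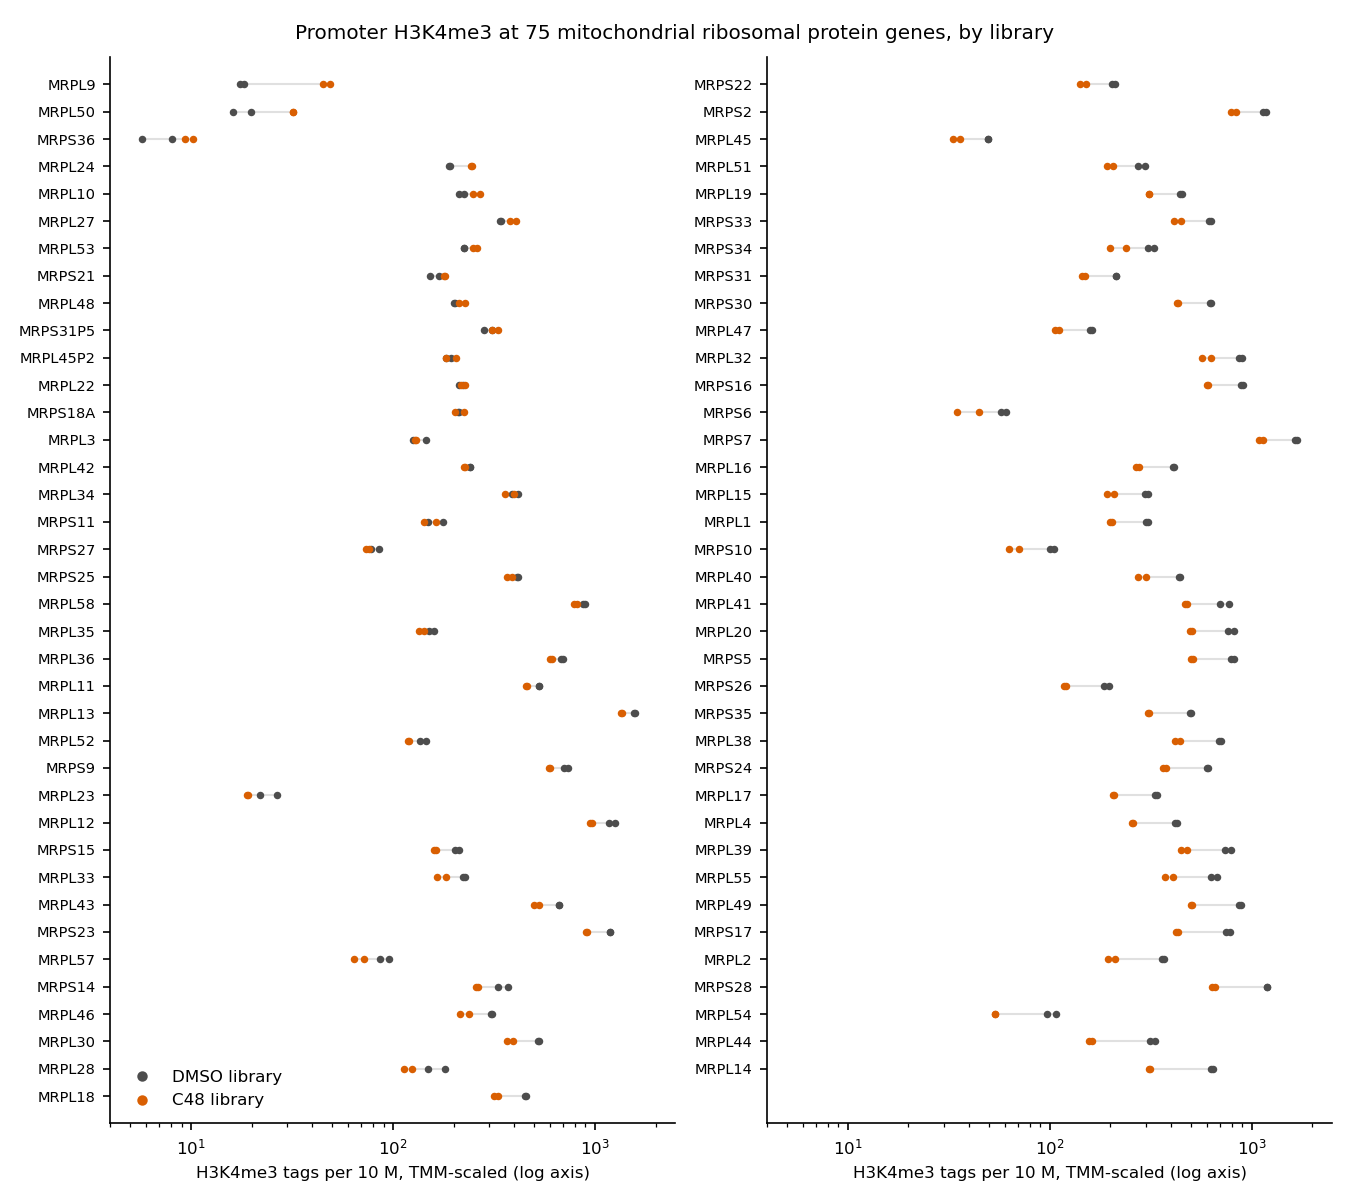
H3K4me3 within 1 kb of the start in tags per 10 M after TMM scaling (log axis) at the 75 tested genes, ordered by log2 fold change, with 1 point per library, grey for DMSO and orange for C48. The C48 points lie left of the DMSO points at 59 genes and right of them at 9, among them MRPL9 and MRPL50 at the top.

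Divided by subunit, each class held more falls than rises with TMM, as did all genes tested (64.5% lower and 18.8% higher). Per 10 M tags the share over all genes was 41.2% lower and 35.8% higher. Of 28 large-subunit genes with a bacterial homologue, 19 fell, 4 rose and 5 were not called (median -0.42), and per 10 M tags 13 were lower and 11 higher. Of 21 large-subunit genes specific to mitochondria, 16 fell, 2 rose and 3 were not called (median -0.51), and per 10 M tags 10 were lower and 6 higher. These 21 include MRPS30 and MRPS18A, whose proteins sit in the large subunit in spite of their symbols. In the small subunit 12 of 14 genes with a bacterial homologue fell, MRPS21 rose and 1 was not called (median -0.57). Of 10 genes specific to mitochondria 8 fell and none rose (median -0.52). Per 10 M tags 8 of the 14 were lower and 2 higher, and 6 of the 10 were lower and 2 higher. These 10 include MRPS36, whose protein has since been described in another complex. The differences between these classes were not tested.

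**Figure D2:**
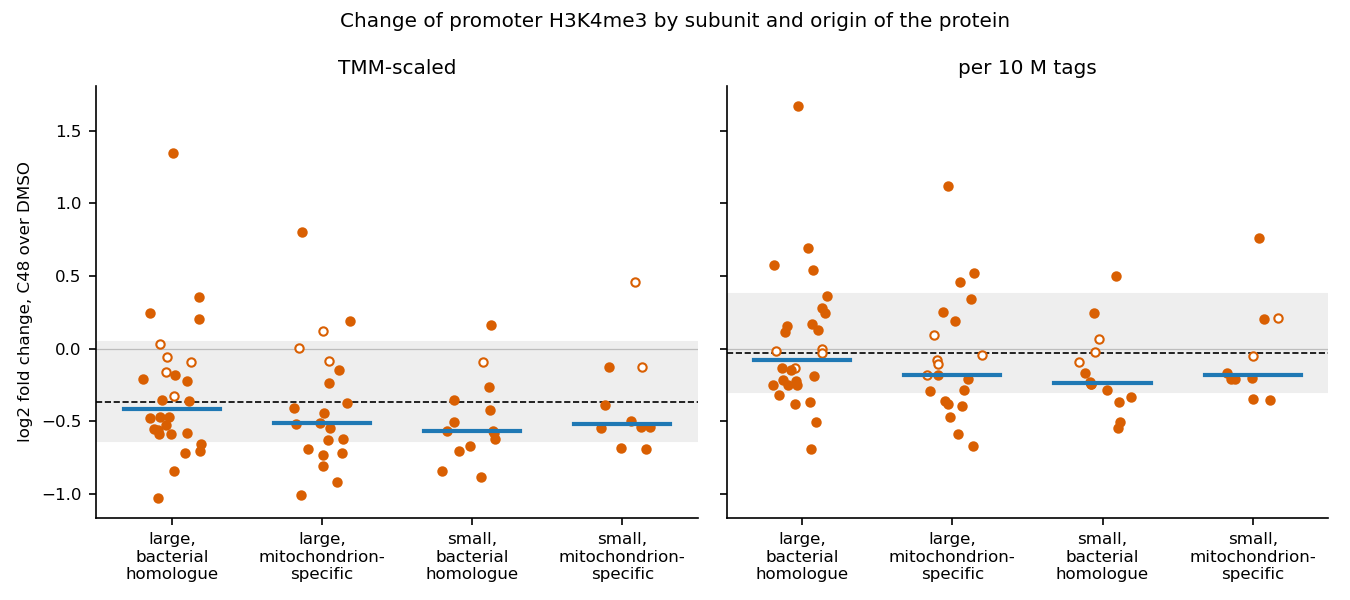
Log2 fold change, C48 over DMSO, of the tested genes in 4 classes, with TMM (left) and per 10 M tags (right). Filled points passed adjusted p under 0.05, blue bars are class medians, the dashed line and grey band are the median and quartiles of all genes tested, and the class medians lie between -0.42 and -0.57 with TMM and between -0.08 and -0.24 per 10 M tags.

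The 6 genes with the lowest log2 fold change had 0.491 to 0.559 times the DMSO level. MRPL14, the homologue of bacterial L14 at the face of the large subunit that meets the small one, was at 629.7 and 646 in DMSO and 311 and 313 in C48. Both C48 libraries lay far below both DMSO libraries, with a log2 fold change of -1.03 (SE 0.0502, adjusted p = 2.92e-35). It was -0.69 per 10 M tags. Its 1 peak covered chr6:44127277-44127606, across the start.

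MRPL44, a mitochondrion-specific protein of the large subunit with an RNase III-like fold, was at 314 and 331 in DMSO and 157 and 163 in C48. The groups did not overlap and the log2 fold change was -1.005 (SE 0.0662, adjusted p = 2.65e-26), or -0.67 per 10 M tags. This is the gene whose 250 upstream bases are printed above, and its 1 peak, chr2:223957299-223957827, was called in all 4 libraries.

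MRPL54, another mitochondrion-specific large-subunit gene, stood at 97.4 and 107 in DMSO and 53.7 and 53.4 in C48. Its log2 fold change was -0.92 (SE 0.108, adjusted p = 6.49e-13), or -0.59 per 10 M tags. MRPS28, the small-subunit protein counted as the relative of bacterial S1, was at 1194 and 1197 in DMSO and 633 and 662 in C48. It was the strongest of these 6 genes in DMSO, and its log2 fold change was -0.88 (SE 0.0404, adjusted p = 2.15e-37).

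MRPL2, whose bacterial homologue lies near the peptidyl transferase centre, was at 368 and 360.5 in DMSO and 196 and 210.4 in C48. That is a log2 fold change of -0.84 (SE 0.0615, adjusted p = 1.96e-23) and of -0.51 per 10 M tags. MRPS17, a small-subunit protein with a bacterial homologue, was at 747 and 784 in DMSO and 423 and 431 in C48. The log2 fold change of MRPS17 was -0.84 (SE 0.0462, adjusted p = 1.41e-31), and all 6 of these genes were also called lower per 10 M tags.

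The 4 genes with the highest level were all called lower with TMM. MRPS7, which binds the head of the small subunit, was at 1675 and 1642 in DMSO and 1085 and 1133 in C48. Its peak, chr17:75261056-75262446, was 1391 bases wide, and its log2 fold change was -0.58 (SE 0.0360, adjusted p = 4.83e-28). MRPL13, a large-subunit protein with a bacterial homologue, was at 1573 and 1589.8 in DMSO and 1365 and 1347 in C48. Its fall was small, -0.22 (SE 0.0350, adjusted p = 1.50e-08), and it turned into a call of higher, 0.11, per 10 M tags.

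MRPL12, the stalk protein that meets the translation factors and has also been linked to the mitochondrial RNA polymerase, was at 1265 and 1177 in DMSO and 943 and 970.3 in C48. It fell with TMM, -0.35 (SE 0.0387, adjusted p = 4.21e-14), but was not called per 10 M tags (-0.015) and was above 0 on the column total (0.026). MRPS23, a mitochondrion-specific small-subunit protein, was at 1194 and 1189.8 in DMSO and 916 and 908 in C48. It fell with TMM, -0.39 (SE 0.0382, adjusted p = 3.12e-16), and was at -0.05 and not called per 10 M tags.

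Of the remaining genes chosen for their role, MRPS16, mutated in a combined oxidative phosphorylation deficiency, was at 885 and 907 in DMSO and 599.7 and 610.0 in C48. It fell, -0.57 (SE 0.0424, adjusted p = 8.64e-23). MRPS22, in which mutations cause a similar disease, was at 203 and 211 in DMSO and 151 and 141 in C48 and fell, -0.50 (SE 0.0746, adjusted p = 3.00e-09). MRPS30 was at 624 and 627 in DMSO and 429.8 and 426 in C48 and fell, -0.55 (SE 0.0475, adjusted p = 3.62e-19), with its 1 peak centred 500 bases downstream of the start. These 3 genes were at -0.23, -0.16 and -0.21 per 10 M tags, each called lower.

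MRPL3, a large-subunit protein with a bacterial homologue, was at 146 and 126 in DMSO and 129.6 and 131 in C48. The DMSO libraries lay on either side of the C48 libraries, and the log2 fold change of -0.06 (SE 0.0848, adjusted p = 0.537) did not pass the threshold. The same gene was called higher per 10 M tags (0.28). MRPL58, a peptidyl-tRNA hydrolase that frees stalled ribosomes, was at 878 and 899 in DMSO and 786 and 818 in C48. It fell slightly with TMM, -0.15 (SE 0.0409, adjusted p = 0.000668), and was called higher per 10 M tags (0.19). Without C48 replicate 1 it was at -0.087 and not called (adjusted p = 0.0544, limma). MRPS12 had no peak within 1 kb annotated to it.

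Of the 7 genes that rose, MRPL24 and MRPS21 had a single peak centred within 400 bases of the start. MRPL24, a large-subunit protein with a bacterial homologue, was at 193 and 191 in DMSO and 247 and 244 in C48. Both C48 libraries lay above both DMSO libraries, with a log2 fold change of 0.35 (SE 0.0673, adjusted p = 1.39e-06) and of 0.69 per 10 M tags. Its peak, chr1:156740574-156741115, was centred 244 bases downstream of the start and was called in all 4 libraries. MRPS21, of the small subunit, had its peak 352 bases downstream, at 154 and 169.9 in DMSO and 182 and 179.6 in C48, and a log2 fold change of 0.16 (SE 0.0754, adjusted p = 0.0403). That call was lost with DESeq2 size factors (adjusted p = 0.218), without DMSO replicate 1 (0.350) and without C48 replicate 1 (0.0684).

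MRPL9 and MRPL50 had the largest rises, and both rested on 1 weak peak away from the start. MRPL9, a large-subunit protein with a bacterial homologue, was at 18.3 and 17.4 in DMSO and 45.02 and 49.04 in C48, in a peak centred at -540 bases from the start. Its log2 fold change was 1.35 (SE 0.161, adjusted p = 1.25e-12). MRPL50, specific to mitochondria, was at 19.9 and 16.2 in DMSO and 31.98 and 32.03 in C48, in a peak 724 bases downstream, and its log2 fold change was 0.80 (SE 0.176, adjusted p = 2.45e-05). Neither peak had been called by the peak caller in any of the 4 libraries, so both entered the table through other libraries merged into the consensus.

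The stronger peaks over these starts were annotated to neighbours. At MRPL9 a peak centred 244 bases downstream of its canonical start was annotated to OAZ3, with 362 and 378 tags per 10 M in DMSO and 316 and 302 in C48. At MRPL50 a peak at the gap printed above was annotated to ZNF189, with 722 and 717 in DMSO and 521 and 527 in C48. When every peak within 1 kb of the canonical start was summed, MRPL9 was at -0.12 (adjusted p = 0.0309, limma) and MRPL50 at -0.41 (adjusted p = 2.28e-14, limma), so both directions reversed.

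GENCODE version 44 holds 78 protein-coding genes of the family, of which 74 were members. MRPL21, MRPL37 and MRPS18C, to which no peak within 1 kb was annotated, had peaks there that were annotated to IGHMBP2, CYB5RL and HELQ, and these were at -0.53, -0.22 and -0.67 when counted by position. Of the 78 genes, 74 were tested this way, of which 61 were lower and 5 higher, with a median of -0.49. MRPL23, MRPS12 and MRPS18B had no peak within 1 kb of the canonical start, and MRPL45 was too low to be tested there. The background was 66.7% lower and 18.1% higher of 18188 genes, which also include genes of long noncoding RNA. MRPL57, a small protein of the large subunit, went from -0.41 to -0.77 because a peak at its start was annotated to SKA3. From its own peak it was called lower with TMM, but not per 10 M tags (-0.08). MRPS34, a small-subunit protein, went from -0.54 to -0.28 with peaks annotated to EME2 and NME3. Among the 6 genes with the lowest change, MRPL14 went from -1.03 to -0.85 with peaks annotated to TMEM63B. MRPL2 went from -0.84 to -0.58 with a peak annotated to KLC4, and the others of the 6 had no such peak.

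**Figure D3:**
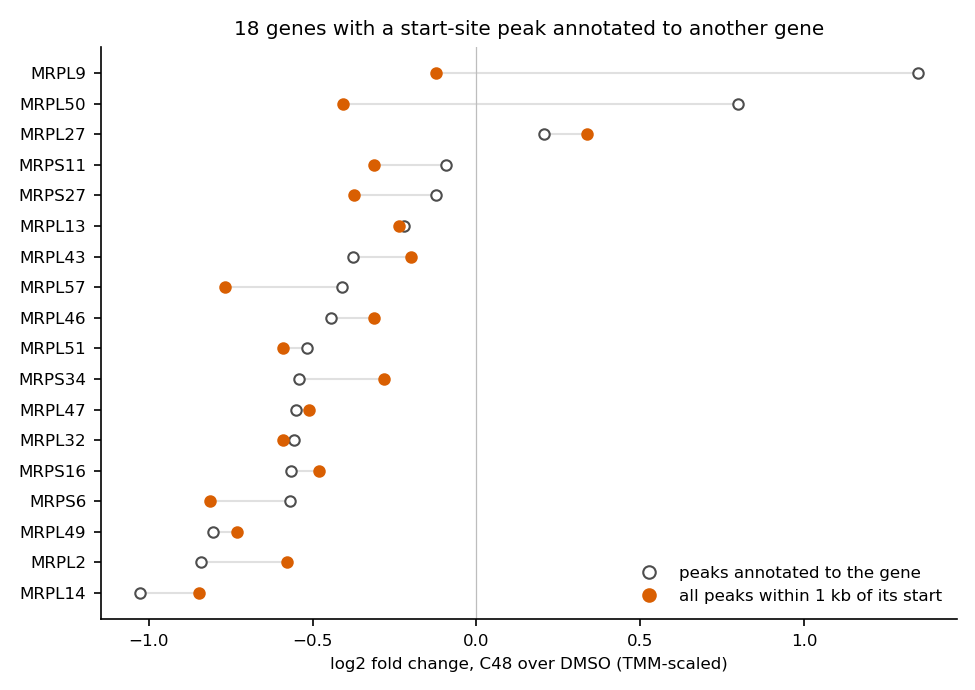
Log2 fold change, C48 over DMSO with TMM, of the 18 genes with a peak within 1 kb of the start annotated to another gene, from peaks annotated to the gene (open) and from all peaks within 1 kb of its canonical start (orange). MRPL9 and MRPL50 cross 0, from 1.35 to -0.12 and from 0.80 to -0.41, while the other 16 stay on their side.

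Shared starts were common in the family. Of the 73 tested members that are not pseudogenes, 24 (32.9%) had another gene starting on the opposite strand within 1000 bases upstream, compared with 23.0% of 12512 tested protein-coding genes. The median log2 fold change was -0.49 for these 24 and -0.50 for the other 49. MRPL46 and MRPS11 start 320 bases apart and point away from each other. The MRPL46 peak was at 305 and 309 in DMSO and 214 and 237 in C48 and fell, -0.44 (SE 0.0628, adjusted p = 5.90e-10), whereas the MRPS11 peak was at 177 and 150.1 in DMSO and 142 and 164 in C48 and was not called, -0.09 (SE 0.0806, adjusted p = 0.285). On the scale per 10 M tags MRPL46 was not called (-0.11) and MRPS11 was called higher (0.24). The difference between these neighbours was not tested.

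Other rising members held a strong peak at the start and a weak one farther off. MRPL10, the protein at the base of the stalk, was at 213 and 226 in DMSO and 250.2 and 270.0 in C48, with 0.24 (SE 0.0653, adjusted p = 0.000454). Its peak at 247 bases was at 199 and 214 in DMSO and 207 and 221 in C48 and was not called (0.05), while the peak at 852 bases was at 13.7 and 11.8 in DMSO and 43.3 and 49.4 in C48 and rose, 1.78 (SE 0.172, adjusted p = 4.11e-14). MRPL27, next to the P site in bacterial ribosomes, was at 344 and 338 in DMSO and 380.0 and 407 in C48, with 0.21 (SE 0.0545, adjusted p = 0.000393). Its start peak was at -0.04 and not called, and the peak at 665 bases was at 91.6 and 85.4 in DMSO and 144 and 151 in C48 and rose, 0.73 (SE 0.0874, adjusted p = 5.00e-11). MRPL53 had the same layout, with 0.11 at 183 bases, not called, and 1.85 at 662 bases upstream. The start peaks of MRPL10, MRPL27 and MRPL53 were called higher per 10 M tags, at 0.38, 0.29 and 0.45.

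The split between the start and its flanks held over all the members' peaks. Of 75 tested peaks centred within 400 bases of the start, 55 fell, 3 rose and 17 were not called, with a median of -0.52. Of 26 peaks between 400 and 1000 bases, 14 rose, 8 fell and 4 were not called, with a median of 0.38. Over all 43320 peaks tested, 36.8% were called higher and 34.6% lower. All 14753 tested peaks within 400 bases of a start had a median of -0.40, with 17.1% higher and 63.5% lower. All 7579 tested peaks at 400 to 1000 bases had a median of -0.03, with 33.4% higher and 38.4% lower. Per 10 M tags the members' peaks within 400 bases gave 19 higher and 40 lower (median -0.18), and those at 400 to 1000 bases 18 higher and 2 lower (median 0.70). On that scale all peaks within 400 bases gave 4840 higher and 6335 lower (median -0.06). All peaks at 400 to 1000 bases gave 4088 higher and 1586 lower (median 0.30), so rises there were common in general. Of the 4 peaks at 1 to 2 kb annotated to members, 2 were tested, at MRPL30 and MRPS10, and both rose, by 0.97 and 1.44, where 65.3% of all 3108 tested peaks at that distance rose (median 0.63).

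Of the 104 peaks, 64 were called by the peak caller in all 4 libraries and 32 in none. There were 2 called in both C48 libraries and in no DMSO library, and none with the opposite pattern. Of all 25821 peaks within 1 kb, 3.15% had the first pattern and 1.42% the second, and the caller found 37462 and 37867 peaks in the C48 libraries and 30162 and 29745 in the DMSO libraries.

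**Figure D4:**
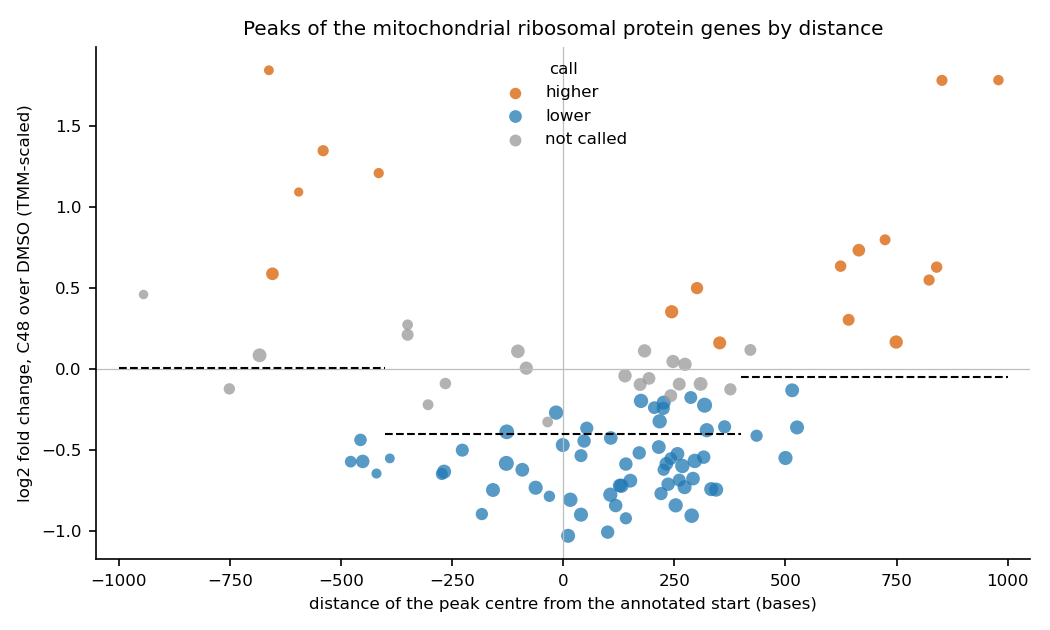
Log2 fold change, C48 over DMSO with TMM, of the 101 tested peaks of the members against the distance of the peak centre from the annotated start in bases, with larger points for stronger peaks. Dashed lines are the medians of all peaks in the same distance ranges (-0.40 within 400 bases, 0.01 upstream and -0.05 downstream of that), and 14 of the 17 peaks called higher lie beyond 400 bases.

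In 8 genes, 1 of them the pseudogene MRPL45P2, peaks of the same gene within 1000 bases of the start were called in opposite directions, and in each of them the strongest peak fell. The share of such genes over all genes was not computed, so the count does not set the members apart. MRPL32, which must be cut by a protease in the matrix before it joins the ribosome, gave 655 and 679 in DMSO and 341 and 375 in C48 at 40 bases, where it fell (-0.90). At 749 bases it gave 211 and 216 in DMSO and 228 and 254 in C48 and rose (0.17, adjusted p = 0.0227, limma). As a sum the gene was at -0.56 (SE 0.0439, adjusted p = 1.47e-21).

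MRPL1, a protein of the mobile stalk at the tRNA exit, gave 279 and 275 in DMSO and 159 and 166 in C48 at 220 bases and 29.04 and 24.2 in DMSO and 40.6 and 38.1 in C48 at 823 bases. The first fell (-0.77) and the second rose (0.55), and the sum was at -0.59 (SE 0.0636, adjusted p = 1.98e-14). MRPS33, specific to mitochondria, gave 544 and 560.4 in DMSO and 341 and 318 in C48 at 158 bases upstream and 67.97 and 71.8 in DMSO and 106 and 92.9 in C48 at 301 bases downstream, with -0.75 and 0.50. MRPS5, with a bacterial homologue, gave -0.77 at 106 bases and 0.31 at 642 bases.

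MRPL42 was at 240.5 and 241 in DMSO and 225 and 229 in C48 as a sum and was not called, -0.08 (SE 0.0651, adjusted p = 0.22). Its peak at 225 bases fell (-0.24) and that at 624 bases rose (0.64), so the sum showed neither. The sum was called higher per 10 M tags (0.25). MRPL36, a very small protein, was at 697 and 683 in DMSO and 615 and 602 in C48, of which all but a few tags lay in 1 peak that fell (-0.20), and a peak at -595 bases with at most 11.1 tags per 10 M rose (1.09). As a sum MRPL36 fell with TMM (-0.18) and was called higher per 10 M tags (0.16). MRPL58 had -0.32 at 217 bases and 0.59 at 654 bases upstream. The start peaks of MRPL36, MRPL42 and MRPL58 were called lower with TMM but were above 0 per 10 M tags, at 0.14, 0.09 and 0.01.

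The ratio of the weaker peaks to the strongest peak of the same gene does not depend on the scaling of a library. It was tested with limma over 5913 genes with at least 2 tested peaks, of which 61.0% had a higher ratio in C48, with a median log2 change of 0.48. Of 22 members with such peaks, 19 had a higher ratio, none a lower one and 3 were not called, with a median of 0.83, and 21 were above 0. The strongest peak is the one with the highest mean over the 4 libraries.

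At MRPL10 the weaker peak held 6.42% and 5.25% in DMSO and 17.3% and 18.3% in C48 of the gene's tags, and the log2 ratio rose by 1.73 (SE 0.126, adjusted p = 0.000812). At MRPL1 the share was 9.43% and 8.10% in DMSO and 20.3% and 18.7% in C48, and the log2 ratio rose by 1.32 (SE 0.118, adjusted p = 0.001). At MRPL32 it was 24.4% and 24.2% in DMSO and 40.05% and 40.3% in C48, at MRPS33 11.1% and 11.4% in DMSO and 23.7% and 22.6% in C48, and at MRPL12 30.6% and 30.7% in DMSO and 41.8% and 41.3% in C48. In all 5 genes both C48 libraries lay above both DMSO libraries. At MRPL41, with 2 peaks of like strength, the share was 45.4% and 46.4% in DMSO and 47.5% and 47.99% in C48 and the ratio was not called (adjusted p = 0.293, limma), and MRPL17 and MRPS31 were not called either.

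**Figure D5:**
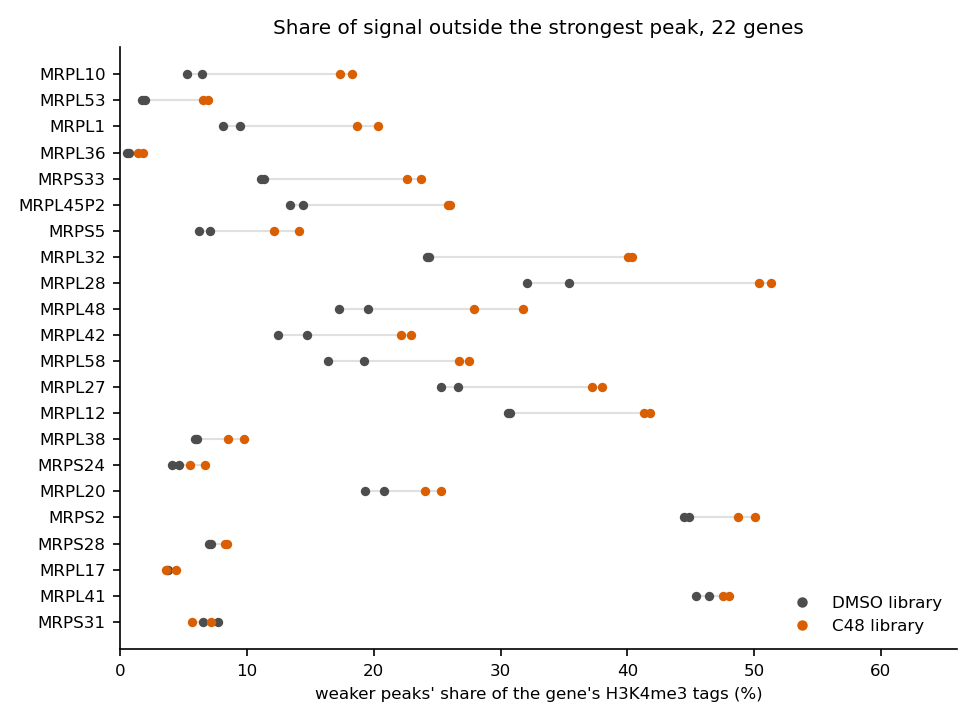
Share of a gene's H3K4me3 tags that lay outside its strongest peak, in percent, in each library (grey DMSO, orange C48) at the 22 members with at least 2 tested peaks, ordered by the change of the log2 ratio. The C48 libraries lie right of the DMSO libraries except at MRPL17 and MRPS31, where they overlap.

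A few members could not be read as well as the rest. MRPS36, since described as a subunit of the 2-oxoglutarate dehydrogenase complex, had the lowest level, 8.11 and 5.76 in DMSO and 9.40 and 10.2 in C48, in a peak 944 bases upstream, and its log2 fold change of 0.46 (SE 0.272, adjusted p = 0.108) was not called. It was called higher per 10 M tags (0.76) and without DMSO replicate 1 (0.68, adjusted p = 0.0442, limma), and was at 0.23 without DMSO replicate 2 (adjusted p = 0.479, limma). MRPL23 was at 21.9 and 26.7 in DMSO and 19.3 and 18.97 in C48 and not called, -0.33 (SE 0.184, adjusted p = 0.0936), and its peak lay on an unlocalized contig assigned to chromosome 11. Without DMSO replicate 1 it was called lower (-0.47, adjusted p = 0.0412, limma). The main peak of MRPL45, at 48.2 and 47.1 in DMSO and 27.1 and 27.4 in C48, lay on an alternate contig of chromosome 17. As a sum MRPL45 was called lower, -0.51 (SE 0.139, adjusted p = 0.000522), but not per 10 M tags (-0.18). MRPS18B was listed at 0 in every library, with its 1 peak on an alternate contig of chromosome 6. Tags that align equally well to a chromosome and such a contig could be split between them. The pseudogene MRPL45P2, similar in sequence to MRPL45, was at 184 and 194 in DMSO and 183 and 206 in C48, and MRPS31P5 at 284 and 310.1 in DMSO and 309 and 333 in C48. Neither was called with TMM (0.04 and 0.11), and both were called higher per 10 M tags (0.38 and 0.45).

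Most genes that work with the mitochondrial ribosome also fell with TMM, as did most genes of any kind. For every list that follows, the share over all genes tested was 64.5% lower and 18.8% higher with TMM. Per 10 M tags it was 41.2% lower and 35.8% higher. All 5 mitoribosomal proteins with other symbols fell (median -0.60). AURKAIP1, of the small subunit, was at 556 and 546 in DMSO and 310.4 and 337 in C48, with -0.77 (SE 0.0519, adjusted p = 1.37e-25). DAP3, a GTP-binding protein of the small subunit, was at -0.70 (SE 0.0722, adjusted p = 1.60e-15). All 14 translation factors fell (median -0.41), among them GFM2, which recycles ribosomes, at -0.61 (SE 0.0476, adjusted p = 1.29e-21), and MTFMT, which formylates the initiator tRNA, at -0.69 (SE 0.0627, adjusted p = 3.72e-18). Per 10 M tags 6 of these 14 were called lower and none higher (median -0.07), and of the 5 with other symbols 3 were lower and none higher (median -0.26).

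All 19 assembly factors tested fell (median -0.52), with MTG2, a GTPase of large-subunit assembly, at -0.80 (SE 0.0381, adjusted p = 5.72e-36) and MTERF3, which binds ribosomal RNA, at -0.51 (SE 0.0331, adjusted p = 1.20e-26). Of 15 mitochondrial aminoacyl-tRNA synthetases, 13 fell and 2 were not called (median -0.54), with the glutamyl enzyme EARS2 at -0.92 (SE 0.0400, adjusted p = 6.26e-39) and the phenylalanyl enzyme FARS2 at -0.89 (SE 0.0512, adjusted p = 3.50e-30). Of 10 genes of mitochondrial transcription or DNA replication, 7 fell, TWNK rose and 2 were not called (median -0.42), with TFAM, which packages mitochondrial DNA, at -0.70 (SE 0.0387, adjusted p = 1.84e-31) and POLG, the polymerase that replicates this DNA, at -0.80 (SE 0.0527, adjusted p = 1.84e-26). TWNK, the helicase gene whose start lies 46 bases from that of MRPL43, was at 0.36 (SE 0.0727, adjusted p = 4.82e-06). Per 10 M tags 14 assembly factors were lower and none higher, 11 synthetases lower and 3 higher, and 5 genes of transcription or DNA replication lower and 3 higher.

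All 10 regulators of nuclear mitochondrial genes fell (median -0.75). The gene of YY1, whose core is printed above, was at 1249 and 1208 in DMSO and 476 and 511 in C48, with -1.32 (SE 0.0424, adjusted p = 1.20e-48). MYC was at 2509.7 and 2671 in DMSO and 1331 and 1401 in C48, with -0.92 (SE 0.0340, adjusted p = 3.38e-44). Per 10 M tags 8 of the 10 were called lower and none higher (median -0.41).

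The cytoplasmic ribosomal protein genes gave a median of -0.75 for 71 tested, with 70 lower and none higher, and per 10 M tags 66 lower and 1 higher. The 68 tested subunits of the respiratory chain had a median of -0.50, with 57 lower and 2 higher, and per 10 M tags 43 lower and 14 higher. Relative to all genes the cytoplasmic set stood at -0.39, the respiratory chain at -0.13 and the mitochondrial ribosomal protein genes at -0.115. These are descriptions of lists of different level, and the differences between the lists were not tested.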

How the data were processed

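H3K4me3 was profiled by CUT-and-Tag in 2 DMSO and 2 C48 libraries of HCC1428 cells. The authors aligned reads with Bowtie2 2.3.4.1, per the labels, to hg38 and dm6, called peaks per library with HOMER (version not given in the sources used here) and merged them over libraries that include other cell lines. The deposited signal is HOMER tags per 10 M aligned tags in each consensus peak, without spike-in scaling, with no column of values left unmatched. Spike-in counts, which the study's own test used, were not used here, and neither was a table of tag fractions by repeat class.

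Peaks within 1000 bases of the TSS were summed per gene. Values were scaled by TMM (edgeR 4.0.16), taken as log2(value + 1), which understates changes of low genes, and tested with limma 3.58.1 (trend) for genes or peaks with a mean of at least 5. P-values were adjusted by the Benjamini-Hochberg method over all genes or peaks, with a call at 0.05. Single values were given no exact permutation test, since 2 against 2 libraries cannot go below p = 0.333. Values of a library are multiples of 1 tag (100% whole within 0.1 tags), so edgeR's quasi-likelihood test and DESeq2 1.42.0 were run on the recovered tags as alternatives. The sum by position and the ratio of weaker to strongest peaks were chosen after seeing the data.

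The members and lists were chosen with earlier results of these data known. Named are the 6 tested members with the highest and the 6 with the lowest change, the 4 with the highest and 3 with the lowest level, those with peaks called in opposite directions, a set fixed by role, and the 2 genes of each related list with the smallest p. Other members named for their peaks, neighbours or position, and TWNK, were chosen after their values were seen. The replicates differed by more than counting noise (chi-square per degree of freedom 3.05 in DMSO and 2.94 in C48). The labels call them biological, and the spread that the p-values rest on is that between these libraries, which may be technical. Same-numbered libraries did not deviate together (correlation -0.0308), so the numbers were not taken as pairs. The limma and edgeR tests over genes were checked on simulated data in which few genes changed, as many up as down. That simulation held no shift of most genes and is no check of the scaling. Coordinates are hg38, 1-based.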

Additional observations from a re-analysis of the deposited data

How the results depend on the processing

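The scaling decided most of what changed. Per 10 M tags, 23 members were called higher, 37 lower and the median was -0.14, and on the column total 25 were higher, 34 lower and the median was -0.10. Over all genes, 5251 were higher and 6047 lower per 10 M tags, and 5711 and 5578 on the column total, beside 2749 and 9450 with TMM. Of the members' peaks, 37 were higher per 10 M tags, and 40 were higher and 39 lower on the column total, beside 17 and 63. The median was -0.54 with DESeq2 size factors and -0.55 with the DESeq2 Wald test, and the calls of MRPL53 (adjusted p = 0.0729) and MRPS21 (0.218) were lost with those factors. With peaks annotated promoter-TSS alone 50 members could be tested, of which 32 were lower (median -0.43), and 5858 of all genes were lower. With the strongest peak alone 4 members were higher (median -0.52), and within 500 bases 2 were higher (median -0.52), of 71 tested.

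Reversed per 10 M tags and on the column total were MRPL13 (0.11 and 0.16), MRPL36 (0.16 and 0.20), MRPL42 (0.25 and 0.29), MRPL58 (0.19 and 0.23) and MRPL3 (0.28 and 0.32), and on the column total alone MRPL12 (0.026) and MRPL23 (0.035). With promoter-TSS peaks alone, which drop their start peaks annotated as intron, MRPL12 (0.086), MRPL36 (1.09) and MRPL58 (0.46) reversed. MRPL27 reversed with the strongest peak or within 500 bases (-0.040 in both). The pseudogene MRPL45P2 was near 0 and reversed with DESeq2 size factors (-0.023), the Wald test (-0.018), the strongest peak (-0.17), within 500 bases (-0.12) and without C48 replicate 2 (-0.017). MRPL3 ran from -0.18 to 0.045 over the fits that left out 1 library, reversing without DMSO replicate 1. By position MRPL9 (-0.12) and MRPL50 (-0.41) reversed.

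Leaving out 1 library at a time gave 7 to 8 members higher, 52 to 57 lower and a median of -0.50 to -0.39. The lone library left in a group was assumed to vary like the other group. Without C48 replicate 1 MRPL58 was not called (adjusted p = 0.0544), and without DMSO replicate 1 MRPS36 and MRPL23 were called (0.0442 and 0.0412). With the replicate block 6 members were higher and 55 lower, the call lost being that of MRPS21 (adjusted p = 0.0501). With edgeR on the recovered tags 7 were higher and 55 lower, and 2752 and 9447 of all genes. Pseudocounts of 0.5 and 5, filters at 0 and 20 and a distance of 2000 bases reversed no named member, and of their calls that of MRPS21 was lost with no filter (adjusted p = 0.0537). The cause of these changes was not tested beyond the construction of each alternative. Spike-in scaling, which would show a shift shared by all peaks, was not analysed here.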
